A study of Sus scrofa with 32 samples.

Results

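Control fetal pig liver near term was compared with control fetal liver at the earliest stage sampled, using 8 of the 32 arrays of a study of intrauterine growth restriction. The 8 arrays were chosen by their titles. The 4 day 110 arrays held liver RNA of control fetuses at gestational day 110, close to birth, and the 4 day 37 arrays held liver RNA of control fetuses at gestational day 37. The other arrays covered controls at days 50 and 70, and runts, the growth-restricted fetuses, at all 4 days. Every gilt in the study had lost 1 uterine horn and ovary by surgery and was then inseminated artificially, so that all fetuses, controls included, grew in a crowded uterus. The samples of each day came from 4 distinct gilts, and the labels describe control and growth-restricted fetuses as littermate pairs.

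Early in gestation the fetal liver is the main site of blood formation. Red cell precursors, megakaryocytes and their progenitors lie between immature hepatocytes that already secrete fetal plasma proteins. Towards birth the blood-forming cells leave for the bone marrow, and the hepatocytes acquire the enzymes of drug metabolism, the complement proteins and the glucose output that the newborn needs. Fetal cortisol and thyroid hormone rise before birth and drive part of that change.

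The level of a gene is given as the log2 of its background-subtracted signal minus that array's 75th percentile, so that a level of 0 is the signal at that percentile. A change is the day 110 level minus the day 37 level on this log2 scale, with the standard error (SE) of the limma fit. A feature passed where its Benjamini-Hochberg adjusted p was under 0.05 and the 2 days differed by 2-fold or more, and "rose" and "fell" are used only of features that passed. The features were 28673 probes or genes, of which 1596 carried a gene symbol. Levels of different genes rest on different probes and are not set against each other.

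The 8 arrays had a signal well above background on 56.4% to 68.5% of their spots, and none was saturated. That share averaged 64 ± 4.35% at day 110 and 61.5 ± 3.87% at day 37 (SD, n = 4 each), a difference of 2.56 percentage points that did not exceed the spread (exact permutation test, two-sided, p = 0.371). Arrays correlated across features at 0.961 to 0.979 within day 110 and at 0.976 to 0.983 within day 37, and at 0.873 to 0.914 between the days. All day 110 arrays were at position 4 of their slide and all day 37 arrays at position 1, so day and array position cannot be told apart. Slide 8 was the 1 slide with an array of each group, and there 8326 of the 8402 features that passed (99.1%) differed in the direction of the fit, to which these arrays contribute. The liver markers ALB, TTR, TF, APOA1, SERPINA1, AFP and HNF4A were above background on all 8 arrays.

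Close to term 4301 features were higher (15%) and 4101 lower (14.3%) than at day 37, together 29.3% of those tested. Among the 1596 features with a symbol, 336 were higher (21.1%) and 251 lower (15.7%). The median change was -0.017 over all features and 0.076 over those with a symbol. Within slides 4 to 9, with 3 arrays of each day, 7858 features passed, and within slides 1 to 3, with 1 array of each, 5331, of which 41.7% were higher, against 51.2% over all slides. In slides 1 to 3 neither day has a spread of its own, and its single array is assumed to vary like the other groups on these slides. With slide as a block 8276 passed. With normexp, another background correction, 4018 passed, and 3931 of the 8402 were among them. Of the features that passed, 7515 had no overlap between the 4 arrays of one day and the 4 of the other, beside 45.8% of all features. A 95% interval within 1 log2 unit of 0 bounded the change of 11394 features (39.7%) near no change. Changes of at least 16-fold were found for 171 features that rose and 155 that fell. Of the features that rose, 714 were not well above background on any day 37 array, and of those that fell, 306 were not on any day 110 array. For such genes the fold is a lower bound, the mean of the brighter group over the background limit of the dimmer arrays.

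GSTA1, NR1I2 and C6 had the 3 largest fitted rises among genes with a symbol that met the naming rule. GSTA1 (NM_214389) measured 3.88, 5.78, 6.98 and 6.41 at day 110, against -3.60, -3.91, -5.20 and -6.21 at day 37. GSTA1, a glutathione transferase that detoxifies electrophiles, was thus higher on every day 110 array, and 2 of its 4 day 37 arrays were well above background. Its change was 10.49 ± 0.94 (adjusted p = 4.81e-10). NR1I2 (NM_001038005) measured 3.35, 3.24, 3.43 and 3.27 at day 110, against -7.36, -7.46, -7.12 and -6.68 at day 37. The pregnane X receptor NR1I2, which turns on drug-metabolizing genes, was not above background on any day 37 array and was at least 314-fold higher at day 110 (adjusted p = 3.05e-16). C6 (NM_001097449) measured 2.74, 2.94, 4.02 and 3.91 at day 110, against -7.22, -7.27, -4.68 and -5.96 at day 37. C6, a subunit of the membrane attack complex, was likewise not above background on any day 37 array and at least 322-fold higher at day 110 (adjusted p = 3.94e-12).

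CYP2E1 (NM_214421) measured 6.60, 7.65, 6.25 and 7.20 at day 110, against -3.84, 1.29, -3.15 and 1.23 at day 37. CYP2E1, the cytochrome P450 that oxidizes ethanol, therefore lay in a narrow range at day 110 and in a wide one at day 37, where 2 arrays were near 1 and the other 2 below -3, and its change was 8.04 ± 1.88 (adjusted p = 0.000786). IGFBP2 (NM_214003) measured 8.34, 7.96, 7.69 and 7.86 at day 110, against 2.63, 2.0, 1.49 and 1.94 at day 37. The change of IGFBP2, a carrier of insulin-like growth factors in plasma, was 61.7-fold, or 5.95 ± 0.46 (adjusted p = 2.71e-11). SULT2A1 (NM_001037150) measured 5.88, 5.22, 5.47 and 5.86 at day 110, against -0.47, -1.31, 0.45 and 0.51 at day 37. SULT2A1, which sulphates steroids and bile acids, rose 56.2-fold (adjusted p = 3.88e-08). Netrin NTN1, a guidance cue, changed by 6.44 ± 0.51 (adjusted p = 4.63e-11). MGP, an inhibitor of calcification, changed by 6.16 ± 0.52 (adjusted p = 1.66e-10). The other genes among the 15 largest rises were C4BPA, DMBT1, FXYD2, the defensin DEFB1, the interferon-induced GTPase GBP1, the chemokine receptor CXCR6 and the deiodinase DIO1, with changes from 5.20 for DIO1 to 5.77 for C4BPA.

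Among the 15 largest falls were the globin HBE1, the receptor EPOR and the mitotic genes AURKA and CCNB1. HBE1 (NM_214447) measured -1.62, -2.34, -0.80 and -2.22 at day 110, against 4.45, 4.26, 5.11 and 4.19 at day 37. HBE1, the embryonic beta-type globin, was lower on every day 110 array than on any day 37 array, and it fell by 6.24 ± 0.34 (adjusted p = 8.86e-14). CITED1 (NM_001037964) measured -4.79, -5.52, -5.61 and -5.58 at day 110, against 0.97, 1.53, 1.87 and 1.44 at day 37. CITED1, a transcriptional coregulator of embryonic tissues, was above background on 1 of 4 day 110 arrays and on all 4 day 37 arrays, and its change was -6.83 ± 0.43 (adjusted p = 7.33e-13). PLA2G1B (NM_001004037) measured -3.42, -5.10, -4.15 and -4.11 at day 110, against 2.05, 2.81, 2.91 and 3.03 at day 37. PLA2G1B, a secreted phospholipase best known from the pancreas, changed by -6.90 ± 0.49 (adjusted p = 7.52e-12). EPOR (NM_214292) measured 0.38, -0.20, 1.45 and -0.78 at day 110, against 5.01, 4.17, 4.31 and 4.13 at day 37. The erythropoietin receptor EPOR separated the days on all arrays, with a change of -4.19 ± 0.30 (adjusted p = 6.84e-12). TLDC2 was not above background on any day 110 array and was at least 42.3-fold lower there (adjusted p = 7.29e-13). The seminal plasma gene SPMI was at least 15.7-fold lower (adjusted p = 2.58e-05). UPK2, PDZK1IP1, TNNI1, STEAP1, KCNN4, SPEF2, KCNN3, AURKA and CCNB1 made up the rest of the 15 largest falls, with changes from -5.10 for UPK2 to -4.20 for CCNB1. Of the dimmer SPEF2 probes, one fell by 3.03 (adjusted p = 5.35e-08) and another changed by -0.50 and did not pass.

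**Figure D1:**
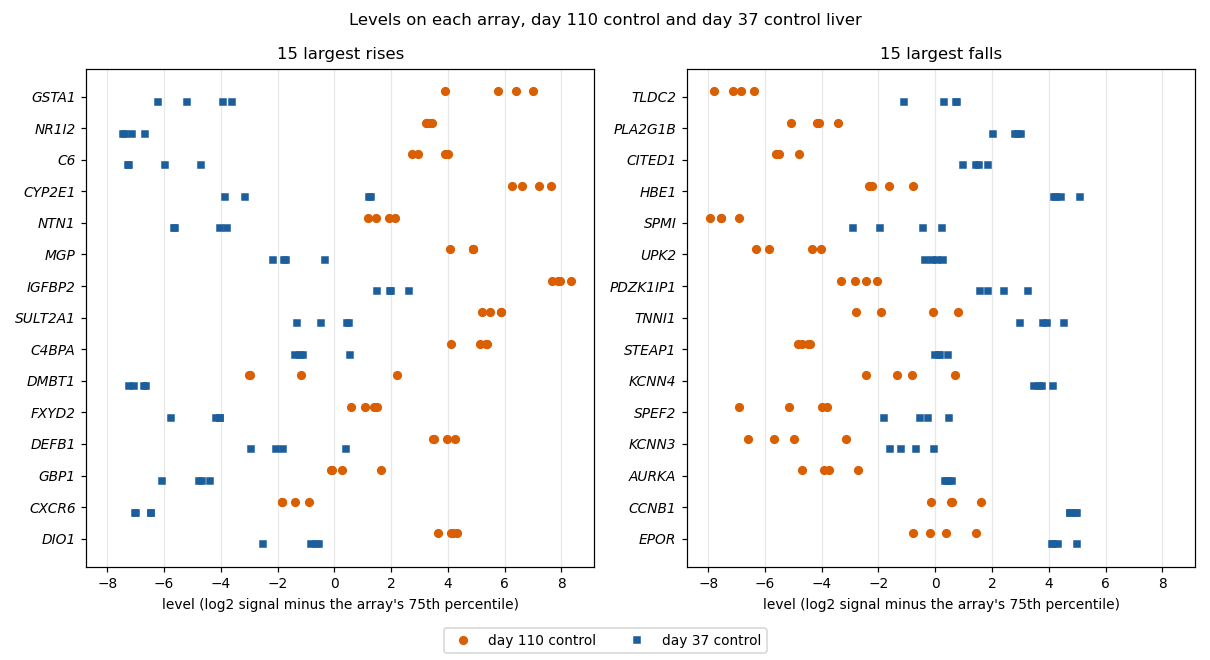
Levels on each array (log2 signal minus the array's 75th percentile, horizontal axis) of the 15 largest rises (left) and the 15 largest falls (right) among named genes, with day 110 control arrays as circles above and day 37 control arrays as squares below. In each of these genes the 4 arrays of one day lie apart from the 4 of the other, and CYP2E1 has its widest spread at day 37.

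Genes were then read by role, in lists drawn up for liver functions and cell types, which share some members. Each count is to be read against the 21.1% higher and 15.7% lower among all features with a symbol. In 11 of 41 lists both shares lay within 10 percentage points of these, and nothing is read from those counts. They are the lists of plasma carriers, conjugation enzymes, the urea cycle, fatty acid oxidation, fatty acid synthesis, early fetal liver genes, stromal genes, solute carriers, stress genes, integrins, and collagens and laminins. Of the genes of complement, the plasma cascade that marks and lyses microbes, 15 of 22 measured members rose, 1 fell and 6 did not pass, with a median change of 1.95. The shares were 68.2% higher and 4.55% lower. C7, which follows C6 in the lytic complex, was at least 9.72-fold higher (adjusted p = 8.73e-09). C4BPA, a chain of a complement inhibitor, had levels of 5.14, 5.36, 5.35 and 4.10 at day 110, against -1.20, 0.54, -1.10 and -1.37 at day 37, a change of 5.77 ± 1.17 (adjusted p = 0.000174) in which day 37 replicate 2 stood above the other day 37 arrays. C3, the central component, averaged 6.73 ± 0.20 at day 110 and 4.80 ± 0.89 at day 37, a change of 1.93 ± 0.44 (adjusted p = 0.000544). The mannan-binding lectin MBL1 changed by 2.49 ± 0.30 (adjusted p = 1.01e-07) and C4A by 2.23 ± 0.40 (adjusted p = 3.75e-05). CD55, which protects cells from complement, fell by 2.98 ± 0.45 (adjusted p = 2.97e-06). The C1 inhibitor SERPING1 had a change of 0.21 ± 0.16.

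Of acute phase genes, 8 of 12 measured members rose, 0 fell and 4 did not pass, with a median change of 1.86. Besides proteins that hepatocytes secrete in inflammation, the list holds the transcription factor STAT3 and the receptors IL6R, IL6ST, PIGR and CD14. STAT3, PIGR and CD14 were among the 8 that rose. PIGR did not pass with normexp background correction (adjusted p = 0.856), and dimmer STAT3 probes changed by -0.57 and 0.91 and did not pass. SAA3, a serum amyloid, averaged 2.66 ± 0.37 at day 110 and -2.29 ± 0.37 at day 37, a change of 4.95 ± 0.51 (adjusted p = 7.06e-09). CD14, the endotoxin coreceptor made by hepatocytes and macrophages, changed by 4.25 ± 0.23 (adjusted p = 5.68e-14), and LBP, which hands endotoxin to it, by 2.87 ± 0.38 (adjusted p = 3.81e-07). CRP changed by 1.97 ± 0.30 (adjusted p = 3.94e-06). Haptoglobin HP, which binds free haemoglobin, did not pass with its brightest probe, at 0.98 ± 0.32 (adjusted p = 0.0132). A second HP probe passed, with a change of 1.18.

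Among plasma carriers and protease inhibitors, 3 of 15 measured members rose, 1 fell and 11 did not pass, with a median change of 0.72. Albumin ALB averaged 7.60 ± 0.53 at day 110 and 6.22 ± 0.66 at day 37 and passed narrowly, at 1.39 ± 0.59 (adjusted p = 0.0493). It did not pass with slide as a fixed block (1.65, adjusted p = 0.0564), with array weights (adjusted p = 0.0606), without a filter on dim probes (adjusted p = 0.0712) or with normexp background correction (adjusted p = 0.118). Its adjusted p was 0.107 without day 110 replicate 1, 0.083 without day 110 replicate 2, 0.0973 without day 110 replicate 3, 0.0725 without day 37 replicate 2, 0.118 without day 37 replicate 3 and 0.115 without day 37 replicate 4. A dimmer ALB probe also rose, by 2.07 (adjusted p = 0.00727). Thyroxine-binding globulin SERPINA7 rose by 1.83 ± 0.18 (adjusted p = 2.22e-09), and vitronectin VTN by 1.68 ± 0.15 (adjusted p = 5.42e-10). The cortisol carrier SERPINA6 fell by 1.32 ± 0.18 (adjusted p = 4.65e-07). Transferrin TF had a change of -0.58 ± 0.20 (adjusted p = 0.0171) and transthyretin TTR of -0.25 ± 0.49 (adjusted p = 0.685), neither of which passed.

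Of the clotting and fibrinolysis genes, 6 of 15 measured members rose, 1 fell and 8 did not pass, with a median change of 0.92. F10 averaged 5.30 ± 0.12 at day 110 and 3.35 ± 0.17 at day 37, a change of 1.95 ± 0.14 (adjusted p = 5.41e-12), and F9, the factor missing in haemophilia B, changed by 1.80 ± 0.16 (adjusted p = 3.72e-10). F7, F12 and F5 changed by 2.56, 1.72 and 1.44, and the prekallikrein KLKB1 by 3.46, all of them passing. Plasminogen PLG changed by 0.33 ± 0.14 (adjusted p = 0.0494), short of 2-fold. Of apolipoproteins and lipoprotein handling genes, 4 of 8 measured members rose, 0 fell and 4 did not pass, with a median change of 0.94. APOC3, an inhibitor of triglyceride clearance, rose by 1.73 ± 0.19 (adjusted p = 2.48e-08) and APOE by 1.22 ± 0.26 (adjusted p = 0.000272). APOA4, a gut and liver apolipoprotein, measured 1.08, 1.62, 4.61 and 1.44 at day 110, against -1.01, -1.33, -1.34 and -1.86 at day 37, with day 110 replicate 3 far above the rest, a change of 3.57 ± 0.76 (adjusted p = 0.000274). APOA1 had a change of 0.43 ± 0.21 with a 95% interval of -0.02 to 0.87.

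Of the transcription factors and nuclear receptors of the liver, 10 of 16 measured members rose, 0 fell and 6 did not pass, with a median change of 1.29. NR1I3 (NM_001037996) measured 2.23, 1.45, 1.85 and 1.30 at day 110, against -2.33, -2.27, -2.22 and -2.92 at day 37. NR1I3, the constitutive androstane receptor and partner of NR1I2 in drug response, separated the days, at 4.14 ± 0.40 (adjusted p = 1.9e-09). The glucocorticoid receptor NR3C1 changed by 1.68 ± 0.17 (adjusted p = 2.57e-09), and PROX1, a hepatoblast migration factor, by 1.54 ± 0.16 (adjusted p = 6.33e-09). HNF4A, a master regulator of hepatocytes, changed by 0.95 ± 0.24 (adjusted p = 0.00165), just under 2-fold.

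Of cytochromes P450 and other phase I enzymes, 10 of 30 measured members rose, 3 fell and 17 did not pass, with a median change of 0.42. CYP2C49 averaged 3.21 ± 0.58 at day 110 and -1.66 ± 0.54 at day 37, a change of 4.86 ± 0.89 (adjusted p = 4.81e-05). CYP2C42 changed by 5.17 ± 0.92 (adjusted p = 3.24e-05) and CYP4A21 by 3.79 ± 0.64 (adjusted p = 1.52e-05). CYP3A29, a pig enzyme of the main drug-metabolizing P450 family, was at least 3.47-fold higher (adjusted p = 0.00205), and it did not pass with normexp background correction (adjusted p = 0.265). CYP7A1, which takes the first step from cholesterol to bile acids, was above background on 1 of 4 day 110 arrays and on none at day 37. The microsomal epoxide hydrolase EPHX1 had a change of -0.02 ± 0.21 with an interval of -0.46 to 0.42. Among conjugating enzymes and export pumps, 3 of 10 measured members rose, 2 fell and 5 did not pass, with a median change of -0.07. Beside GSTA1 and SULT2A1, which rose, MGST3 fell by 1.64 ± 0.18 (adjusted p = 1.5e-08) and SULT1A3 fell by 1.47 ± 0.29 (adjusted p = 0.000137).

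In glucose output, 4 of 6 measured members rose, 1 fell and 1 did not pass, with a median change of 1.25. FBP1, which removes a phosphate on the way to glucose, averaged 6.64 ± 0.40 at day 110 and 4.89 ± 0.19 at day 37, a change of 1.75 ± 0.22 (adjusted p = 1.72e-07), the coactivator PPARGC1A changed by 1.81 ± 0.18 (adjusted p = 2.57e-09), and the glucose transporter SLC2A2 by 1.39 ± 0.20 (adjusted p = 1.26e-06). Lactate dehydrogenase LDHA fell by 1.84 ± 0.26 (adjusted p = 1.15e-06). In glycolysis and the pentose phosphate path, 1 of 9 measured members rose, 3 fell and 5 did not pass, with a median change of -0.70. In fatty acid oxidation and ketogenesis, 2 of 17 measured members rose, 4 fell and 11 did not pass, with a median change of -0.05. CPT1A, which admits fatty acids to mitochondria, rose by 2.24 ± 0.24 (adjusted p = 1.6e-08). In fatty acid and triglyceride synthesis, 6 of 23 measured members rose, 4 fell and 13 did not pass, with a median change of -0.08. In the urea cycle and nitrogen disposal, 1 of 6 measured members rose, 1 fell and 4 did not pass, with a median change of 0.47. Glutamine synthetase GLUL rose by 2.99 ± 0.31 (adjusted p = 5.99e-09), and arginase ARG1 fell by 1.17 ± 0.16 (adjusted p = 7.88e-07). The 2 glycogen genes measured were UGP2 at 0.49 and GSK3B at 0.05, and neither passed. In amino acid catabolism, 2 of 10 measured members rose, 0 fell and 8 did not pass, with a median change of 0.03.

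Of the genes of the insulin-like growth factor and growth hormone axis, 9 of 16 measured members rose, 2 fell and 5 did not pass, with a median change of 1.32. GHR (NM_214254) measured 0.03, 0.28, 0.54 and 0.90 at day 110, against -4.65, -4.29, -4.82 and -4.06 at day 37. The growth hormone receptor GHR separated the days completely, at 4.89 ± 0.29 (adjusted p = 3.11e-13). SOCS2, a feedback inhibitor that growth hormone induces, changed by 2.83 ± 0.23 (adjusted p = 6.07e-11), and IGFBP3, the main plasma carrier of insulin-like growth factors after birth, by 1.59 ± 0.22 (adjusted p = 9.36e-07). The transducer STAT5A fell by 2.54 ± 0.22 (adjusted p = 2.25e-10). IGF2, the fetal growth factor, measured 8.87, 8.44, 8.61 and 8.32 at day 110, against 8.70, 8.50, 8.11 and 8.35 at day 37, a change of 0.14 ± 0.20 with an interval of -0.26 to 0.55, and its 4 other probes changed by -0.35 to 0.16. IGF1 changed by 0.22 ± 0.24, with an interval of -0.26 to 0.71. Of genes of cortisol and thyroid hormone action, 8 of 12 measured members rose, 1 fell and 3 did not pass, with a median change of 1.50. DIO1 (NM_001001627) measured 3.67, 4.30, 4.19 and 4.10 at day 110, against -2.53, -0.82, -0.63 and -0.55 at day 37. DIO1, which makes active thyroid hormone, changed by 5.20 ± 0.54 (adjusted p = 7.8e-09). HSD11B1, which regenerates cortisol, averaged 5.76 ± 0.35 at day 110 and 3.53 ± 0.43 at day 37, a change of 2.23 ± 0.23 (adjusted p = 7.58e-09). KLF9, a glucocorticoid-induced factor, was at least 3.85-fold higher (adjusted p = 3.83e-12) and did not pass with normexp (adjusted p = 0.245).

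Of the genes known from early liver and liver tumours, 3 of 12 measured members rose, 3 fell and 6 did not pass, with a median change of 0.09. Alpha-fetoprotein AFP measured 9.63, 8.70, 8.86 and 8.90 at day 110, against 9.97, 9.43, 9.21 and 9.07 at day 37, a change of -0.40 ± 0.30 with an interval of -1.01 to 0.22, and a dimmer AFP probe changed by -0.97 (adjusted p = 0.00646), short of 2-fold. DLK1, a hepatoblast surface protein, had a change of -0.96 ± 0.32 (adjusted p = 0.0151) with its brightest probe and did not pass, while a dimmer probe fell by 4.72 (adjusted p = 2.69e-08). PLAGL1, an imprinted zinc finger gene, fell by 3.46 ± 0.18 (adjusted p = 3.53e-14), and the imprinted PEG10 rose by 1.36 ± 0.15 (adjusted p = 3.06e-08).

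**Figure D2:**
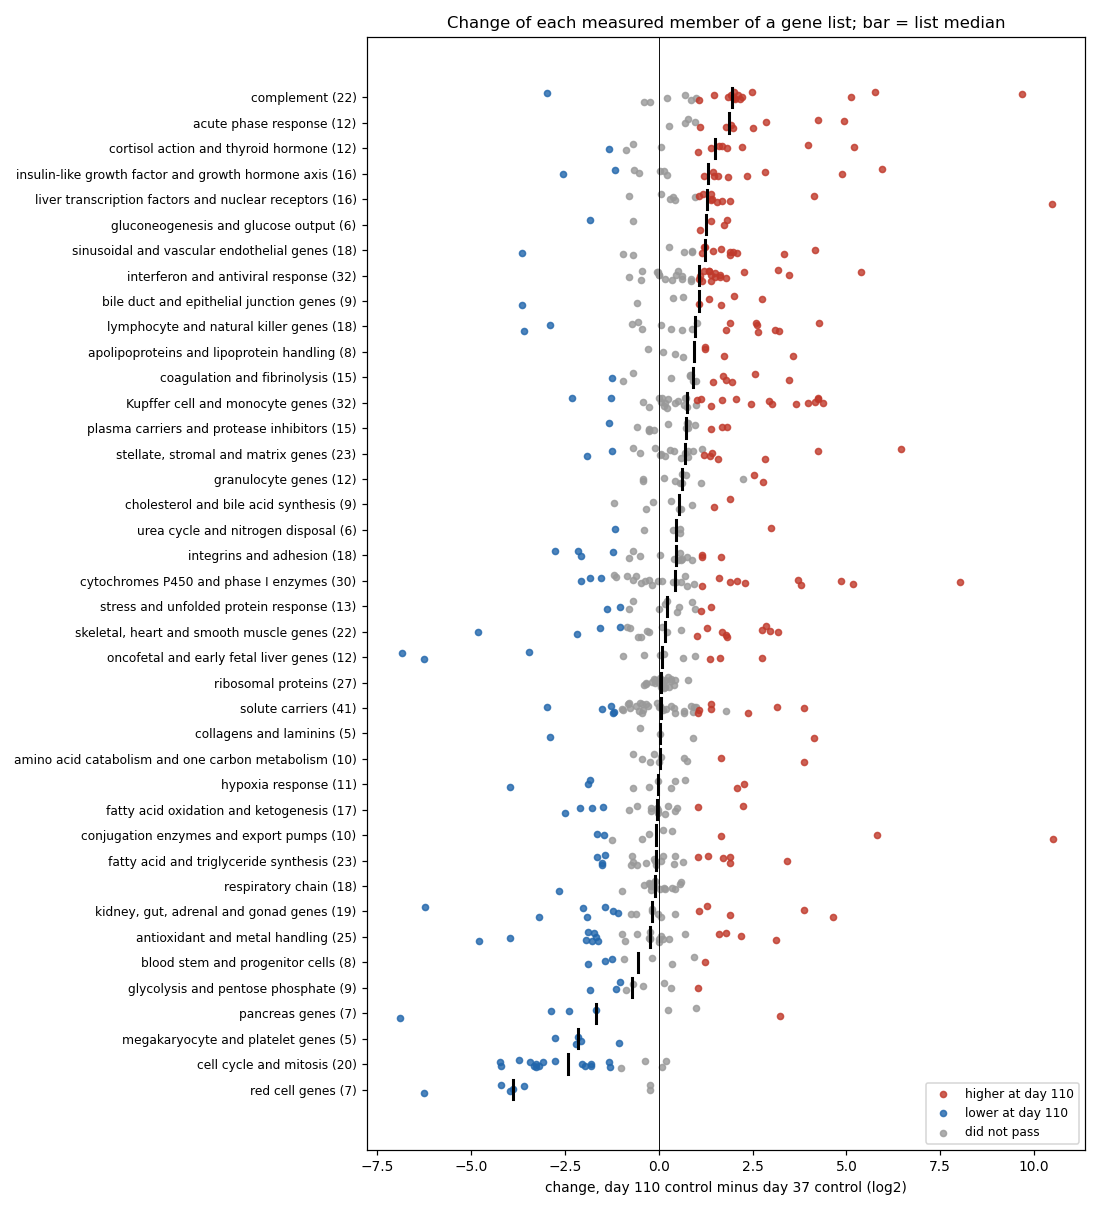
Change of each measured member of every list with at least 5 members (day 110 minus day 37, log2, horizontal axis), with red for higher, blue for lower and grey for members that did not pass, and a black bar at the list median. Numbers in brackets are measured members. Complement and acute phase genes have the highest medians, 1.95 and 1.86, and red cell genes the lowest, -3.88.

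Red cell, platelet and progenitor genes were read next. In whole tissue, fewer cells of a type and less RNA per cell cannot be told apart. Of red cell genes, 0 of 7 measured members rose, 5 fell and 2 did not pass, with a median change of -3.88. RHCE, a blood group protein of red cells, changed by -3.88 ± 0.43 (adjusted p = 2.16e-08), and the transferrin receptor TFRC by -3.97 ± 0.29 (adjusted p = 1.42e-11). CAT and FTH1, which other cells also express, changed by -0.22 and -0.24 and did not pass, although 1 of 9 further FTH1 probes fell by 1.02. The summed linear signal of the 7 genes, in units of the array's 75th percentile, was 563 to 856 at day 110 and 838 to 1280 at day 37. This sum, like those of the lists below, weights bright genes most. It includes CAT and FTH1, so it does not measure the 5 genes that fell. Of megakaryocyte and platelet genes, 0 of 5 measured members rose, 5 fell and 0 did not pass, with a median change of -2.16. ITGB3, a chain of the platelet fibrinogen receptor, averaged 1.45 ± 0.36 at day 110 and 4.21 ± 0.39 at day 37, a change of -2.75 ± 0.26 (adjusted p = 1.16e-09), and its partner ITGA2B changed by -2.07 ± 0.15 (adjusted p = 1.43e-11). PPBP, a platelet chemokine, changed by -2.21 ± 0.28 (adjusted p = 1.67e-07). CD9, which other cells also carry, changed by -1.06 ± 0.26 (adjusted p = 0.00143) and fell short of 2-fold without day 110 replicate 2, without day 110 replicate 4 or without day 37 replicate 1. It was also short of 2-fold with slide as a fixed block (-0.87) and within slides 4 to 9 (-0.95). The summed linear signal of the 5 genes was 15.3 to 22.5 at day 110 and 47.3 to 87.9 at day 37. For blood stem and progenitor genes, 1 of 8 measured members rose, 3 fell and 4 did not pass, with a median change of -0.55. The stem cell factor receptor KIT fell by 1.44 ± 0.40 (adjusted p = 0.00341), and GATA2 fell by 1.24 ± 0.22 (adjusted p = 3.58e-05). CD34, a surface protein of progenitors and of endothelium, rose by 1.22 ± 0.26 (adjusted p = 0.000333). Its change was short of 2-fold with normexp background correction (0.77), without day 110 replicate 1 (0.93) and within slides 1 to 3 (0.95).

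Of granulocyte genes, 2 of 12 measured members rose, 0 fell and 10 did not pass, with a median change of 0.62. Lactoferrin LTF averaged 3.53 at day 37, 4.24 at day 50, 6.19 at day 70 and 4.15 at day 110, and the ends differed by 0.62 ± 0.60. The median step of the list was 0.83 between days 37 and 50, 1.62 between days 50 and 70 and -1.67 between days 70 and 110, up to day 70 and down after it. The day 70 means include control replicate 4, whose lower signal quality is described with the timing below. FCN2 rose by 2.54 ± 0.89 (adjusted p = 0.0185), but its adjusted p was 0.0599 without day 110 replicate 2, 0.0587 without day 110 replicate 3, 0.0614 without day 110 replicate 4, 0.0542 without day 37 replicate 2 and 0.0715 within slides 4 to 9. Its day 110 replicate 1, at 3.41, lay within the range of the day 37 arrays, while the nearest day 110 array was at 7.3. Which cells carried the FCN2 signal was not tested.

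Of the genes of cell division, 0 of 20 measured members rose, 16 fell and 4 did not pass, with a median change of -2.41. CCNB1 (NM_001170768) measured 0.59, 0.56, 1.61 and -0.15 at day 110, against 4.74, 4.96, 4.74 and 4.98 at day 37. Cyclin B1, which starts mitosis, separated the days on all arrays, at -4.20 ± 0.23 (adjusted p = 7.85e-14). CDK1, its kinase partner, averaged 1.29 ± 0.74 at day 110 and 5.02 ± 0.17 at day 37, a change of -3.73 ± 0.23 (adjusted p = 7.54e-13). TOP2A, which untangles replicated DNA, changed by -3.28 ± 0.19 (adjusted p = 3.15e-13), and AURKA, a spindle kinase, by -4.22 ± 0.24 (adjusted p = 1.12e-13). BIRC5 and CDC25C changed by -3.43 and -3.32 and passed. MYC and CCNG1 did not pass, at 0.20 ± 0.18 and 0.09 ± 0.14.

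Of Kupffer cell and monocyte genes, 14 of 32 measured members rose, 2 fell and 16 did not pass, with a median change of 0.75. SLA-DRA (NM_001113706) measured 4.44, 4.21, 3.62 and 5.0 at day 110, against 0.10, 0.01, -0.17 and -0.13 at day 37. SLA-DRA, a chain of the class II antigen-presenting molecule, separated the days, at 4.37 ± 0.31 (adjusted p = 6.02e-12), and SLA-DQA1 and SLA-DQB1 changed by 4.26 and 3.66 and passed. FCGR2B, an inhibitory antibody receptor of Kupffer and sinusoidal cells, averaged 3.76 ± 0.32 at day 110 and -0.41 ± 0.77 at day 37, a change of 4.18 ± 0.38 (adjusted p = 5.51e-10). The scavenger receptor CD163 rose by 1.13 ± 0.24 (adjusted p = 0.000257), with 2 dimmer probes at 0.80 and 0.88 that did not pass, and its change was 0.95 without day 37 replicate 3. The 2 members that fell, named after their values were seen, were CD86, a costimulatory molecule, at -2.32 (adjusted p = 1.85e-12), and the metal transporter SLC11A1, at -1.28 (adjusted p = 0.0083). The myeloid genes TYROBP, SPI1 and FCER1G, also named after their values were seen, did not pass, at 0.44, 0.16 and 0.10. The summed linear signal of the 32 genes was 233 to 296 at day 110 and 105 to 139 at day 37. Bright members weigh most in it, among them HMOX1, which averaged 5.71 at day 110 and 5.98 at day 37. CD14, which hepatocytes also make, averaged 5.32 and 1.07. The sum therefore does not measure the amount of Kupffer cells or monocytes. For lymphocyte and natural killer genes, 8 of 18 measured members rose, 2 fell and 8 did not pass, with a median change of 0.96. CD3G, a chain of the T cell receptor complex, was at least 4.59-fold higher (adjusted p = 8.38e-13) and did not pass with normexp (adjusted p = 0.103). KLRK1, an activating receptor of natural killer cells, fell by 3.59 ± 0.27 (adjusted p = 1.84e-11). The summed signal of the 18 genes was 2.72 to 3.61 at day 110 and 3.46 to 4.43 at day 37. The T cell gene CD3D was not above background on any of the 8 arrays, and neither was IL7R. In the interferon and antiviral list, 17 of 32 measured members rose, 0 fell and 15 did not pass, with a median change of 1.08. GBP1 (NM_001128473) measured 0.26, -0.14, -0.09 and 1.63 at day 110, against -4.75, -4.66, -6.07 and -4.38 at day 37. GBP1 was well above background on 1 day 37 array and on all day 110 arrays, with a change of 5.38 ± 0.49 (adjusted p = 5.38e-10). The chemokine CXCL10 changed by 3.48 ± 0.42 (adjusted p = 9.15e-08), and IRF1 by 2.27 ± 0.19 (adjusted p = 1.57e-10).

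Of sinusoidal and vascular endothelial genes, 11 of 18 measured members rose, 1 fell and 6 did not pass, with a median change of 1.22. CAV1, the coat protein of caveolae, averaged 1.84 ± 0.47 at day 110 and -1.50 ± 0.15 at day 37, a change of 3.34 ± 0.33 (adjusted p = 3.37e-09). NOS3, the endothelial nitric oxide synthase, changed by 2.08 ± 0.16 (adjusted p = 2.98e-11), and a dimmer probe of it by 0.75, which did not pass. The endothelial genes PECAM1 and CDH5 rose by 1.21 and 1.17 with their brightest probes. Dimmer probes of them changed by 0.40 and 0.72 and did not pass, while a dimmer CAV1 probe rose by 3.44. AQP1, a water channel that red cells carry too, fell by 3.65 ± 0.35 (adjusted p = 1.87e-09). The summed signal of the list was 88.2 to 114 at day 110 and 55.1 to 72.3 at day 37. Of stellate, stromal and matrix genes, 7 of 23 measured members rose, 2 fell and 14 did not pass, with a median change of 0.70. RGS5, a pericyte gene, was at least 10.6-fold higher (adjusted p = 5.81e-09), and TGFB3 changed by 2.82 ± 0.25 (adjusted p = 2.7e-10). COL8A1, a vessel wall collagen, rose by 4.13 ± 0.54 (adjusted p = 3.74e-07). Of bile duct and epithelial junction genes, 5 of 9 measured members rose, 1 fell and 3 did not pass, with a median change of 1.07. EPCAM, a surface protein of bile duct cells and hepatoblasts, averaged 2.13 ± 0.32 at day 110 and -0.62 ± 0.60 at day 37, a change of 2.75 ± 0.25 (adjusted p = 5.61e-10), and CDH1, E-cadherin, changed by 1.65 ± 0.29 (adjusted p = 3.41e-05).

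Markers of neighbouring organs were read in the same arrays. Of pancreas genes, 1 of 7 measured members rose, 4 fell and 2 did not pass, with a median change of -1.68. Their summed signal was 1.35 to 2.48 at day 110 and 6.03 to 9.6 at day 37, and PNLIP, INS and GCG were not above background on any of the 8 arrays. Most of the day 37 sum was the signal of PLA2G1B, so the sum does not describe the other pancreas genes. The colipase CLPS fell by 2.88 ± 0.54 (adjusted p = 6.3e-05), while CPA1 rose by 3.23 ± 0.67 (adjusted p = 0.000229), which did not pass with normexp (adjusted p = 0.0918), and AMY2 changed by 0.25 ± 0.22. Of muscle genes, 9 of 22 measured members rose, 4 fell and 9 did not pass, with a median change of 0.16, with TNNI1, a slow muscle troponin, at -4.81 ± 0.59 (adjusted p = 1.11e-07) and CNN1, a smooth muscle protein, at 3.17 ± 0.44 (adjusted p = 8.47e-07). Their summed signal was 51.1 to 69.7 at day 110 and 53.4 to 68.7 at day 37, and MYL1 was not above background on any of them. Of kidney, gut, adrenal and gonad genes, 5 of 19 measured members rose, 7 fell and 7 did not pass, with a median change of -0.19. For the transporter SLC22A6 the brightest probe fell by 1.22 and another rose by 3.02, so its probes disagree. The kidney marker SLC12A1 was not above background on any array either. The part of these tissues in the results was not tested.

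Of 27 ribosomal protein genes 0 passed in limma's test, beside 29.3% of all features, 4 had an unadjusted p under 0.05, and 24 were bounded near no change. RPL6 measured 8.99, 8.69, 8.38 and 8.16 at day 110, against 8.84, 8.67, 8.50 and 8.24 at day 37, with a 95% interval of the change of -0.49 to 0.48. Of 18 respiratory chain genes 1 fell, a subunit, COX8H, which did not pass with normexp (adjusted p = 0.149), and 15 were bounded. Among bright genes, the smallest bounded changes were those of FTCD, a histidine-degrading enzyme (-0.39 to 0.40), RABAC1 (-0.39 to 0.39), FOLR1, a folate receptor (-0.36 to 0.38), and TMED10 (-0.36 to 0.38). Of solute carriers, 7 of 41 measured members rose, 5 fell and 29 did not pass, with a median change of 0.05, which is 17.1% higher and 12.2% lower, near the shares of all features with a symbol. The peptide transporter SLC15A1 rose by 3.87 ± 0.58 (adjusted p = 3.01e-06), and SLC26A6 fell by 2.98 ± 0.24 (adjusted p = 6.87e-11). Among antioxidant and metal genes, 4 of 25 measured members rose, 8 fell and 13 did not pass, with a median change of -0.24. The metalloreductase STEAP1 fell by 4.79 ± 0.29 (adjusted p = 3.34e-13), and its relative STEAP4 rose by 3.13 ± 0.41 (adjusted p = 4.38e-07).

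The control arrays of days 50 and 70 place these changes within gestation, as a description, since they share the end groups with the comparison. Day 70 control replicate 4 had the lowest share of spots well above background of any array in the study, at 51.3%. It also had the most outlier spots, 234. Steps to and from day 70 include this array and were not computed without it. Of the 4301 features that rose, the largest step lay between days 37 and 50 for 21.3%, between days 50 and 70 for 30.7% and between days 70 and 110 for 47.9%. Of the 4101 that fell, the shares were 6.75%, 29.3% and 64%. The 4 means ran in one direction for 54.3% of the rises and 58.9% of the falls. For features above background on at least 1 array of both end days, the shares after day 70 were 47% of 3587 rises and 64.2% of 3794 falls. NR1I2, not well above background on any day 37 array, averaged -3.91 at day 50, 0.05 at day 70 and 3.32 at day 110. IGFBP2 averaged 2.02 at day 37, 4.52 at day 50, 6.82 at day 70 and 7.96 at day 110, with its largest step between days 37 and 50. C6, likewise not above background there, averaged -3.24 at day 70, where 3 of 4 arrays were above background, and 3.40 at day 110. HBE1 averaged 4.50 at day 37, 4.42 at day 50, 2.90 at day 70 and -1.74 at day 110, nearly level until day 50. PLA2G1B averaged 2.70 at day 37, 0.11 at day 50, -1.03 at day 70 and -4.20 at day 110, a decrease at each day. The interval between days 70 and 110 is also the longest. All day 50 control arrays were at position 2 of their slide and all day 70 control arrays at position 3. Day and array position therefore cannot be told apart in any of these steps.

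**Figure D3:**
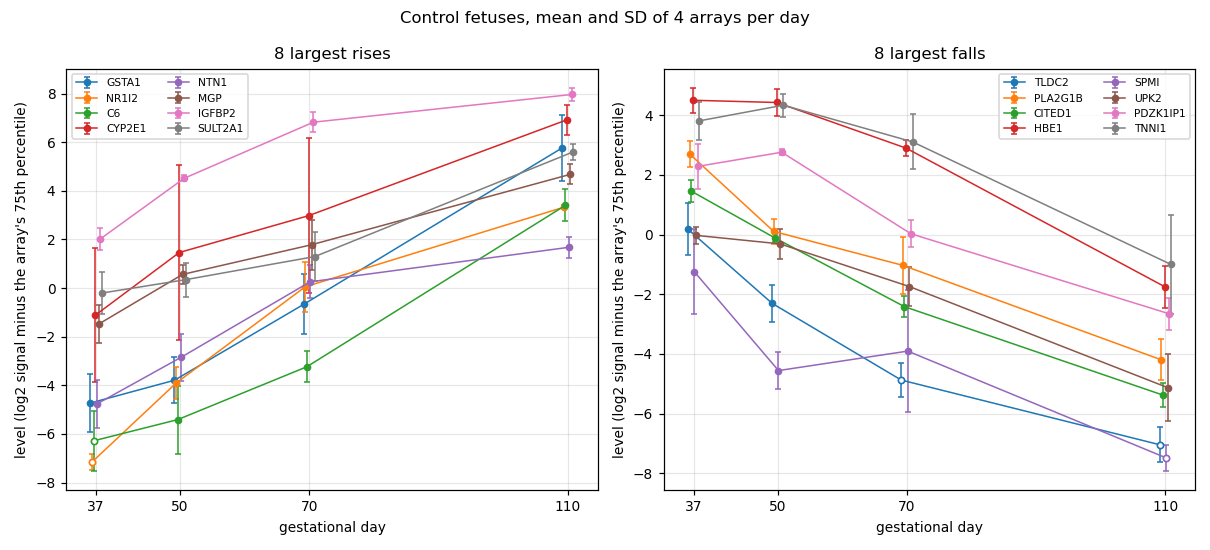
Mean level (log2 signal minus the array's 75th percentile, vertical axis) of the 8 largest rises (left) and falls (right) in control fetuses at days 37, 50, 70 and 110, with bars for the SD of 4 arrays and open circles where none of the 4 arrays was above background. IGFBP2 takes its largest step before day 50, HBE1 stays near its day 37 level until day 50, and the day 37 points of NR1I2 and C6 are open.

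Red cell genes had a median step of -0.08 between days 37 and 50, -0.65 between days 50 and 70 and -2.80 between days 70 and 110. Cell cycle genes had a median step of -0.22 between days 37 and 50, -0.32 between days 50 and 70 and -1.92 between days 70 and 110. Complement genes stepped by 0.18 between days 37 and 50, 0.38 between days 50 and 70 and 0.58 between days 70 and 110, and liver transcription factors by 0.12 between days 37 and 50, 0.57 between days 50 and 70 and 0.39 between days 70 and 110.

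**Figure D4:**
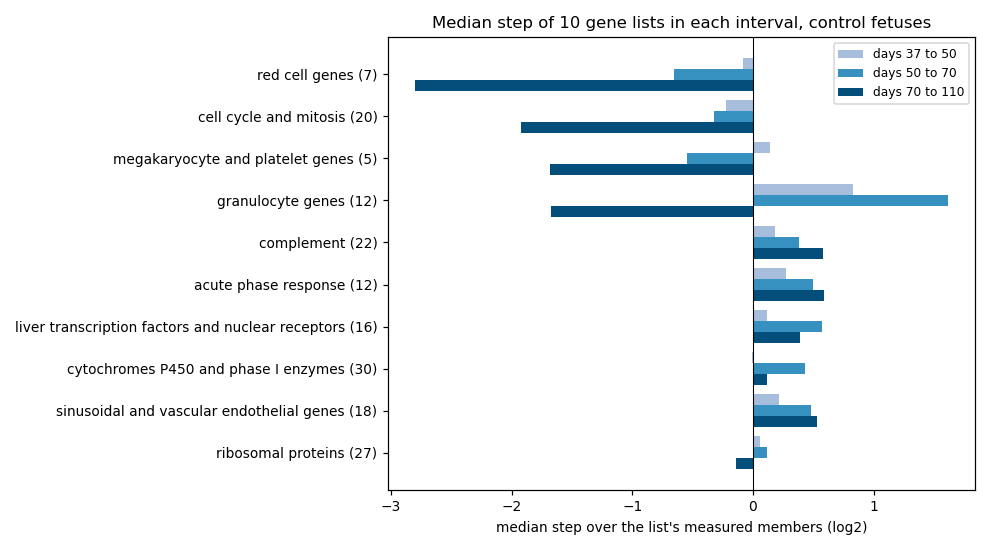
Median step (log2, horizontal axis) over the measured members of 10 gene lists in control fetuses, with a bar for each interval between sampled days. Red cell, cell cycle and megakaryocyte lists take their largest step after day 70, and the granulocyte list turns from up to down there.

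The same contrast was made in runts, which were littermates of the controls and on other arrays. As in controls, all day 110 runt arrays were at position 4 of their slide and all day 37 runt arrays at position 1. Day and array position therefore cannot be told apart in runts either, and a shared direction in runts and controls does not separate them. Between day 110 and day 37 runts had 7757 features that passed (27.1%), 4260 higher and 3497 lower. Of the 4301 features higher in controls, 4297 had the same sign in runts and 3531 (82.1%) the same call. Of the 4101 lower in controls, 4082 had the same sign and 3133 (76.4%) the same call, and 0 features had opposite calls. The change itself differed between runts and controls for 0 features (limma, adjusted p under 0.05, smallest adjusted p = 0.969), and for 533 (1.86%) at an unadjusted p under 0.05. The median SE of that difference was 0.33. Littermates were fitted as unpaired samples, since the labels do not say whether replicate numbers mark the pairs. The 1.86% lies below the share that chance gives on average at that threshold. Finding 0 features therefore does not show that the changes were equal. IGFBP2 changed by 5.30 ± 0.46 in runts and 5.95 ± 0.46 in controls, and HBE1 by -7.36 ± 0.34 in runts and -6.24 ± 0.34 in controls. Albumin changed by 3.42 ± 0.59 in runts and 1.39 ± 0.59 in controls, and the difference had an unadjusted p of 0.0215 in the limma fit and an adjusted p of 1.

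**Figure D5:**
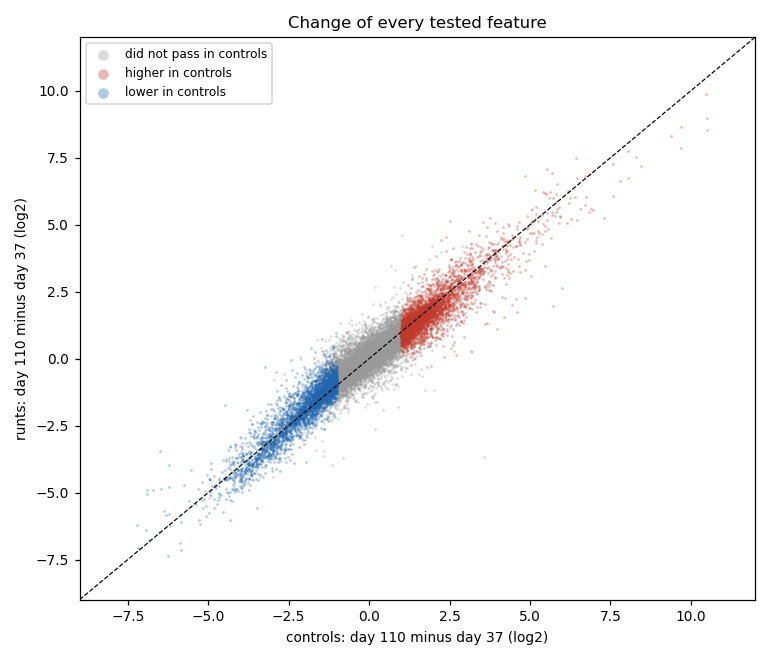
Change of each of the 28673 features in runts (vertical axis, day 110 minus day 37, log2) against the change in controls (horizontal axis), with red and blue for features higher or lower in controls, grey for those that did not pass there, and a dashed line at equality. Nearly all coloured points lie on the same side of 0 in both.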

How the data were processed

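Liver RNA labelled with Cy3 was hybridised to single-colour Agilent arrays. Per the file headers, the authors' scans were read with Feature Extraction 10.7.3.1, whose processed signal is a background-subtracted intensity. A table of log2 values was deposited too, for which the submitters' processing notes name Partek. Its shared maximum and near-equal medians (5.148 to 5.153) on all arrays are those of quantile-normalized values.

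The value used was log2 of the processed intensity minus each array's 75th percentile. Spots of one probe were averaged, and control spots and outlier spots were left out. A probe was tested when well above background on at least 3 of 4 arrays of at least 1 group, and the brightest probe stood for a symbol. Probes were named only through RefSeq accessions, 2683 of 43603 probes giving 1904 symbols, so most features carry no symbol. One mean per group was fitted over all 32 arrays with limma 3.58.1 (R 4.3.3) with 24 residual degrees of freedom, two-sided, with Benjamini-Hochberg adjustment over all features of a contrast. A total of 251 missing values in 248 features were left out of the fit. The 4 arrays per group limit the precision. The members and the 41 gene lists were chosen with earlier results of these data known.

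Named genes were the 15 largest rises and 15 largest falls with a symbol that passed, did not overlap between days and were above background on all 4 arrays of the higher group, a fixed panel, in each list all passing members up to 6 or else the 6 largest changes plus up to 2 of the smallest changes that did not pass, and 5 bright genes bounded near no change. Cell type markers were read as well. The panel genes IGFBP1, H19, CEBPA, PCK1, G6PC, TAT, CPS1, ASS1, HBB, HBA, GATA1, VWF, COL1A1, KRT18, ACTB and GAPDH were not analysed here, and some other named genes are not reported here.

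Alternatives were normexp background correction, quantile normalization, the authors' table, 3 filters on dim probes and the 8 arrays alone. Others were slide and slide set as blocks and within sets, the replicate number as a block, array weights, and each of the 8 arrays left out in turn. Normexp used the median spot signal in place of the planned mean signal, with the median background signal. It added an offset of 50 to every spot, while the arrays' 75th percentiles of processed signal ran from 177 to 460. Such an offset makes the log2 changes of dim genes smaller. A dim gene that did not pass with normexp is therefore not shown to be unchanged. Slide 8 alone was added after seeing the data. Same-numbered arrays of the 2 days did not all deviate together (correlations of 0.02, -0.108, 0.023 and 0.234), so the numbers were not taken as pairs. On simulated data with 200 of 28425 features changed, the fit recovered 72% of changes of 1.5 and 94% of changes of 3 on the log2 scale, with 9 false calls. In the data 15210 of 28673 features had an adjusted p under 0.05 in limma's test, so these rates do not carry over to this comparison.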

Additional observations from a re-analysis of the deposited data

Results flagged for a closer look

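In 26 of 544 groups of 4 arrays looked at (4.78%), 1 array stood far from the other 3 of its day by Dixon's gap, and chance flags about 1 in 20 groups. Of these arrays, 7 were day 110 replicate 1 and 5 were day 37 replicate 4.

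Among genes that rose, day 110 replicate 1 was high in F10 (5.47), F9 (4.92) and LBP (2.05) and low in FCN2 (3.41, with the nearest array at 7.3). Day 110 replicate 2 was low in STC1 (-4.59). Day 110 replicate 3 was low in MGP (4.06) and high in APOA4 (4.61, with the nearest at 1.62). Day 110 replicate 4 was high in APOE (6.07) and SLC7A2 (2.92). At day 37, replicate 1 was low in DIO1 (-2.53) and APOE (4.32) and high in CD34 (-1.71). Replicate 2 of day 37 was high in C4BPA (0.54) and low in FCN2 (3.03), and replicate 3 was low in FXYD2 (-5.76). Replicate 4 of day 37 was low in CYP2C42 (-6.46), NR1I3 (-2.92) and PLTP (-1.14).

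Among genes that fell, CITED1 was high on day 110 replicate 1 (-4.79), WT1 low on day 37 replicate 1 (-4.7) and CLPS low on day 37 replicate 4 (-1.99). Among genes that did not pass, day 110 replicate 1 was high in CAT (6.77) and SPP1 (1.74), day 110 replicate 2 low in ANGPT2 (0.23), day 110 replicate 3 low in PTN (0.06), and day 37 replicate 4 high in HP (7.51).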

How the results depend on the processing

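With normexp background correction 4018 features passed (49% higher), against 8402 (51.2% higher), and 3931 of the 8402 were among them. In runts 3636 passed with it, against 7757. Slides 1 to 3, with 1 array of each day and the spread taken from other groups, gave 5331 (41.7% higher) and 3119 bounded near no change, against 11394. The cause was not tested. Slides 4 to 9 gave 7858, and the other alternatives with all replicates 8003 to 8768. With slide as a fixed block 8276 passed. Leaving out 1 replicate gave 7759 to 8795 features that passed, 10511 to 10989 bounded, 7738 to 7777 in runts, a detection difference of 0.847 to 4.51 percentage points, and 0 to 1 features whose change differed between runts and controls, the 1 without day 110 control replicate 3. No named gene that passed changed direction under any of these alternatives, and none passed in the opposite direction. The replicate block gave 8393 features that passed and 10987 bounded, and over 16 arrays 7791 in runts and 0 that differed. With it ANGPTL4, CD36, CD9 and ENO3 had adjusted p of 0.0514 to 0.0844. Only for replicate 4 did an array correlate best with its own number. Of 186 named genes that passed, 105 passed in every alternative that gave a value for them and 81 failed in at least 1, 41 with normexp and 62 within slides 1 to 3. Without a filter on dim probes the median change of all features was -0.177. Dim signal limits genes near background, and most features have no symbol here.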

Other observations

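Of hypoxia genes, 2 of 11 measured members rose, 3 fell and 6 did not pass, with a median change of -0.03, which is 18.2% higher and 27.3% lower, against 21.1% and 15.7% of all features with a symbol. VEGFA, which drives vessel growth, averaged 1.43 ± 0.24 at day 110 and -0.66 ± 0.20 at day 37, a change of 2.08 ± 0.28 (adjusted p = 6.4e-07), and P4HA1, which hydroxylates collagen, changed by 2.28 ± 0.26 (adjusted p = 2.8e-08). EPO, the red cell growth factor that fetal liver makes, averaged -0.89 ± 0.45 at day 110 and 0.99 ± 0.79 at day 37, a change of -1.89 ± 0.48 (adjusted p = 0.00165). Of stress and unfolded protein genes, 2 of 13 measured members rose, 2 fell and 9 did not pass, with a median change of 0.22, which is 15.4% each way and near those shares. The transcription factor JUN changed by 1.40 ± 0.28 (adjusted p = 0.00014), and GADD45A, a growth arrest gene, by -1.37 ± 0.17 (adjusted p = 1.16e-07). In cholesterol and bile acid synthesis, 2 of 9 measured members rose, 0 fell and 7 did not pass, with a median change of 0.54. Of integrins and adhesion genes, 3 of 18 measured members rose, 4 fell and 11 did not pass, with a median change of 0.46. For ITGB8 the brightest probe fell by 1.23 ± 0.34 (adjusted p = 0.00367) and another rose by 2.84 (adjusted p = 1.93e-07), so the probes of this gene disagree. Of 688 further probes of 474 genes, 88 had a call that differed from that of the probe used. The opposite call was found for 2 of them, those of ITGB8 and SLC22A6.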
